A study of Mus musculus with 208 samples.

Results

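The genes described here encode the working parts of the lysosome: cathepsins (the proteases of this organelle), glycosidases, other soluble hydrolases and cofactors, proteins of its membrane, and the vacuolar proton pump (V-ATPase). They were chosen by name, 48 genes in all, and every probe that the annotation of the array assigns to them was taken. Of these, 46 genes were measured, by 71 of 25697 gene probes. No probe was matched to Npc1 or Atp6v0c, which were not analyzed here.

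Lysosomes degrade proteins, glycans and lipids that arrive by endocytosis, phagocytosis and autophagy. Their enzymes work in acid, and the V-ATPase provides it by pumping protons, with a membrane sector (V0) that carries the protons and a cytosolic sector (V1) that hydrolyzes ATP. Macrophages are rich in lysosomes, and cardiac myocytes use them for the turnover of organelles by autophagy.

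RNA of the left ventricle (LV) of female mice of the Hybrid Mouse Diversity Panel (HMDP), a set of classical inbred and recombinant inbred (RI) strains, was measured on 208 single-color arrays, each with a pool of mice of the same strain. Control mice were untreated (93 strains). ISO mice received the β-adrenergic agonist isoproterenol for 3 weeks (93 strains), at 30 µg/g body weight per day by the sample labels and at 20 by the text of the series. The labels give an age of 10 weeks in both groups, and no transgene or deletion is named in either. A total of 87 strains had both conditions: 27 classical, 33 BXD, 16 AXB/BXA, 4 BXH and 7 CXB strains. The recombinant strains are named after the parents of each cross. Pools differ between arrays, so the p-values measure the spread among strains, and fewer cells of a type cannot be told apart from less RNA per cell in this bulk tissue.

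All 11 measured markers of cardiac myocytes were detected on most arrays. Between 28.9% and 50.3% of the probes of an array were detected above background. A total of 5 arrays stood apart by a low similarity to the other arrays of their condition (ISO AXB19/PgnJ and NOD/LtJ, control AXB4/PgnJ, AXB6/PgnJ and BXD69/RwwJ). Over the probes that varied most among strains, 116 of 196 arrays were most like an array of their own strain in the other condition, and no array on BeadChips 12, 19, 23, 24 and 25 was. BeadChip 6 (1 of 8 arrays) and BeadChip 21 (3 of 8) were next and were kept, so the match to the label was also poor elsewhere. The comparison with ISO and the regressions were repeated without the arrays of low similarity and, separately, without BeadChips 12, 19, 23, 24 and 25. The leaving out of BeadChip 25 was chosen after the values were seen, and lost calls are given below. The arrays were put into 3 sets of BeadChips by the numbering of the slides, which serve as batches below. The third set joins BeadChip 21, whose slide number stands apart, to the others of that set. BeadChip 21 holds the control arrays of AXB4/PgnJ and AXB6/PgnJ.

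Many lysosomal genes share a short promoter motif, the core TCACGTG of the CLEAR element, which is bound by TFEB and related factors. A search of the promoter windows (250 bases before to 50 after each gene start, RefSeq, GRCm38.p6) on both strands found this core in 12 of 41 lysosomal genes with a window (29.3%), against 4.29% of 27025 genes. The following stretches are shown because they show how the core is placed in a gene that rose with ISO (Lgmn) and in genes of other classes that did not pass the test. Capitals mark the core on either strand, and copies that overlap run together.
Lgmn (chr12:102439093-102439192, minus strand): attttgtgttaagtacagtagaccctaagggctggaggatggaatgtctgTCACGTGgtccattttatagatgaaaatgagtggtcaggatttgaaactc
Lamp1 (chr8:13159061-13159160, plus strand): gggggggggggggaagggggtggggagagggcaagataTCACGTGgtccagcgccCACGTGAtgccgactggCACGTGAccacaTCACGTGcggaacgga
Mcoln1 (chr8:3500419-3500518, plus strand): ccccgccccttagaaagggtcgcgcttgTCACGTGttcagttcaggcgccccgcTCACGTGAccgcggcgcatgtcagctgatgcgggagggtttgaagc
Atp6v0b (chr4:117887330-117887429, minus strand): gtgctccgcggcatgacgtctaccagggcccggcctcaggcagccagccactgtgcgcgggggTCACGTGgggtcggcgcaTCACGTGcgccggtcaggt
Gaa (chr11:119267777-119267876, plus strand): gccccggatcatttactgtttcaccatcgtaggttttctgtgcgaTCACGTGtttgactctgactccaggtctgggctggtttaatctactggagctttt
Lamp1 carried several copies within this stretch, and Lgmn carried a single copy 50 bases before its start. The core was present in 3 of 10 genes with a probe that rose with ISO (Lgmn, Atp6v0d1 and Atp6v0e) and in 9 of 29 genes with no probe past the thresholds. A match describes the letters of the window only.

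With ISO a part of the lysosomal genes rose, in every class, and most did not pass the test. A probe was called where its adjusted p-value was under 0.05 (limma with strain as a block, adjusted over all probes) and its log2 difference over 0.2, a change of 14.9%. By this rule 16 of 71 lysosomal probes rose (22.5%), against 3.72% of all probes, and 1 fell, against 3.53% of all probes. The probes that rose belonged to 12 genes, and 33 genes had no call. The median log2 difference was 0.06 over the lysosomal probes and -0.00207 over all probes, and 51 of 71 were above 0. By the adjusted p-value alone, 24 lysosomal probes rose and 2 fell, against 15.1% of all probes in either direction. Counts of the classes are given side by side below, and their difference was not tested. Without BeadChips 12, 19, 23 and 24, 19 lysosomal probes rose, against 4.24% of all probes, and 2 fell. Without BeadChip 25 as well 18 rose, against 4.26% of all probes, and 2 fell. Without background correction 10 rose, against 1.87% of all probes. The calls of Ctsz at both probes, Gusb at 2 probes, Manba, Scarb2 and Atp6ap2 were lost there. Without the 5 arrays of low similarity, 14 rose, against 3.63% of all probes, and 0 fell by limma. In that setting 35 of 71 had an unadjusted p-value under 0.05.

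**Figure D1:**
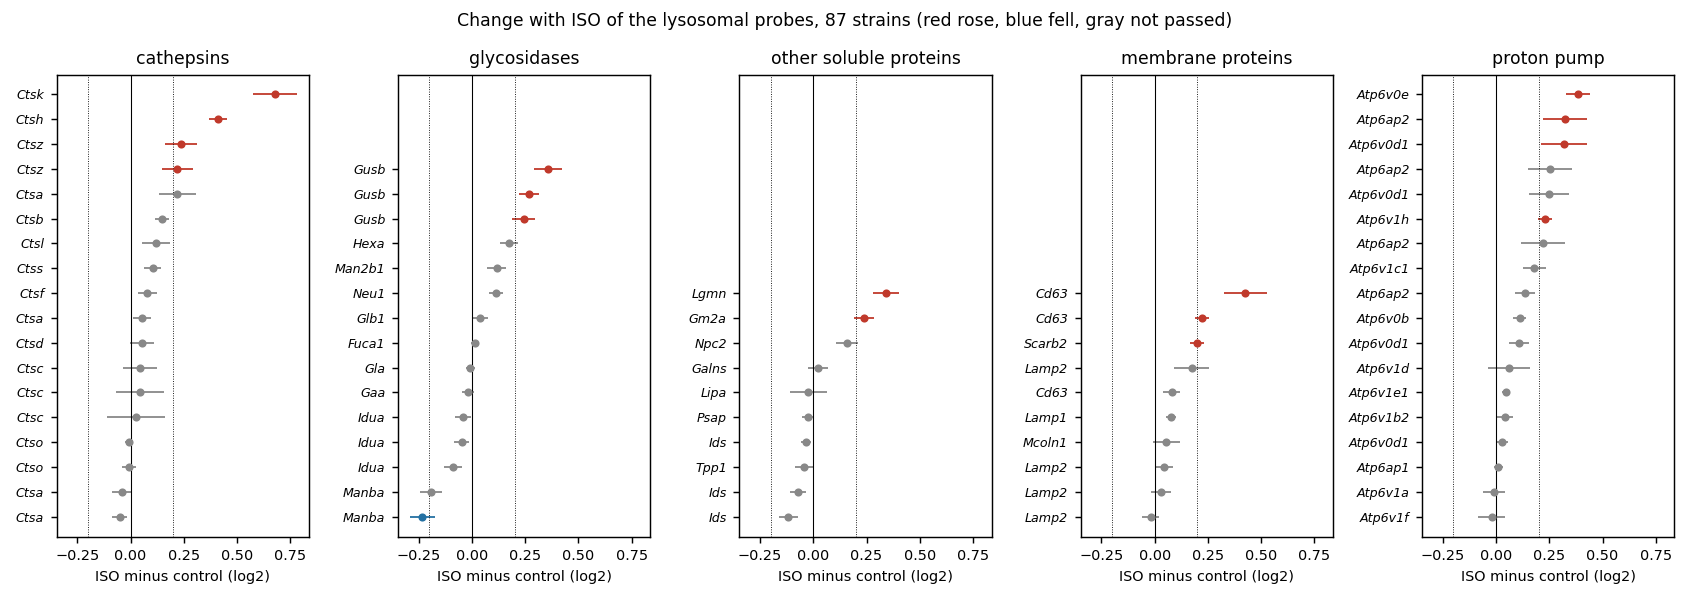
ISO minus control difference in log2 intensity (x axis) of each of the 71 lysosomal probes (rows, labeled by gene), in 1 panel per class. Points are fitted differences over 87 strains, bars are standard errors, and dotted lines are the fold threshold of 0.2 in each direction. Probes that rose (red) are found in every class, and the probe that fell (blue) belongs to Manba.

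Among the cathepsins, 4 of 18 probes rose, of Ctsk, Ctsh and Ctsz, and none fell. The median difference of the class was 0.07 on the log2 scale. Ctsk, a collagen-degrading cysteine protease best known from osteoclasts, rose most. In control hearts its log2 intensity had a lowest strain value of 5.64, a median of 7.58 and a highest of 11.64, and in ISO hearts these were 4.47, 8.16 and 11.36. The ranges of the conditions overlapped nearly in full, while 75 of 87 strains were higher with ISO. The log2 fold change was 0.68 (SE 0.10, 60.2% higher, adjusted p-value = 2.707e-07). Its difference varied more among strains than that of the other cathepsins that rose, from -3.76 in BXD5/TyJ to 3.97 in CXB11/HiAJ. The BXD5/TyJ pair lies on BeadChip 24, and the 11.64 of its control array was the highest untreated value. Without BeadChips 12, 19, 23 and 24 the difference of Ctsk was 0.79.

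Ctsh, a cysteine protease with aminopeptidase activity, had the smallest adjusted p-value of the lysosomal probes. Its control strains ran from 6.77 over a median of 10.27 to 10.95, and its ISO strains from 6.82 over 10.62 to 11.48. It was higher with ISO in 76 of 87 strains, by 0.41 on the log2 scale (SE 0.04, 32.9%, adjusted p-value = 2.84e-13). Both of the lowest values were those of CXB3/ByJ. A difference of this size was present in each set of BeadChips (0.47, 0.45 and 0.40).

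Ctsz, a carboxypeptidase, rose by 0.24 (SE 0.07, adjusted p-value = 0.0174) and 0.22 (SE 0.07, adjusted p-value = 0.0299) at its probes. For the first of these, control strains ran from 5.70 over a median of 6.80 to 8.90, and ISO strains from 6.20 over 7.07 to 8.70. For the other, they ran from 6.17 over 6.70 to 9.09 and from 5.75 over 6.99 to 8.99. Only 61 and 58 of 87 strains were higher with ISO, and in the third set of BeadChips the differences were -0.20 and -0.29. Neither call was kept in an unpaired fit of the same strains (adjusted p-value = 0.0750 and 0.0755).

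The remaining cathepsins did not pass both thresholds. Ctsb, an abundant endo- and carboxypeptidase, was 0.15 higher on the log2 scale (adjusted p-value = 3.661e-04), under the fold threshold. Differences were 0.12 for Ctsl, 0.08 for Ctsf and 0.05 for Ctsd, the aspartic protease of the lysosome. Ctss, the cathepsin of antigen-presenting cells, was detected on 13.9% of arrays only and differed by 0.10 (adjusted p-value = 0.0643), and the probes of Ctso were detected on 0.481% and 6.25% of arrays. The probes of Ctsa, which shields β-galactosidase and neuraminidase, disagreed: the probe detected on 99.5% of arrays was 0.22 higher (adjusted p-value = 0.0672), and the others, at -0.05, 0.05 and -0.04, were each detected on 49.5% of arrays or fewer.

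Ctsc, the protease that activates the granule proteases of immune cells, was the most variable of the members (SD of 2.20, 1.78 and 1.25 among control strains at its 3 probes) and was not called (differences of 0.03, 0.04 and 0.05). At the most variable probe every array was either at or below 7.51 or at or above 8.94, with medians of 5.38 over 122 arrays and 10.06 over 86 arrays. The same arrays were low or high at all 3 probes, in 208 of 208 arrays. Of the control arrays 62 were low and 44 high, and of the ISO arrays 60 were low and 42 high. The high level was found in 28 of 40 AXB/BXA arrays, 36 of 78 BXD arrays, 18 of 67 classical arrays, 2 of 9 BXH arrays and 2 of 14 CXB arrays. Among parents of these crosses, A/J was low on all arrays (5.43 in control, 5.19 and 4.70 with ISO), BALB/cByJ was low (5.21 and 5.93) and C3H/HeJ was high (10.07 and 9.53).

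The level of Ctsc followed the strain label only in part. In 71 of 87 strains all arrays were at the same level, as they were in 85 of 92 pairs of control and ISO arrays that shared a strain and a BeadChip. Where a strain had repeated arrays in a condition, they shared a level in 7 of 22 cases. DBA/2J was high on BeadChip 1 (10.27 and 10.28) and low on BeadChip 19 (5.63 and 5.36). CXB6/ByJ and CXB7/ByJ, both on BeadChip 19, had opposite levels, 4.82 in control and 10.15 with ISO in the former and 9.71 and 5.42 in the latter. C57BL/6J had 7.51 and 9.53 on BeadChip 1 and 5.59 and 5.29 on BeadChip 16. Without BeadChips 12, 19, 23, 24 and 25, all arrays were at the same level in 73 of 80 strains. These levels are a description, since the groups were read from the values.

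Atp6v1d, a subunit of the central stalk of the proton pump, had levels apart in the same way at its single probe, with 38 arrays at or below 9.28 and 170 at or above 10.48 (medians 7.50 and 11.45). The low level was found in 23 of 67 classical arrays, 3 of 9 BXH arrays, 6 of 40 AXB/BXA arrays, 2 of 14 CXB arrays and 4 of 78 BXD arrays. BALB/cByJ (8.39 and 8.22) and BALB/cJ (8.30 and 8.45) were low, and C3H/HeJ, C57BL/6J and DBA/2J were high on all arrays. A/J was low on BeadChip 5 (8.59 and 8.99) and high on BeadChip 25 (11.57). Atp6v1d was 0.06 higher with ISO (adjusted p-value = 0.781). All arrays were at the same level in 74 of 87 strains, or in 78 of 80 without BeadChips 12, 19, 23, 24 and 25. Probes that overlap SNPs were not removed, and their part in such levels was not tested.

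**Figure D2:**
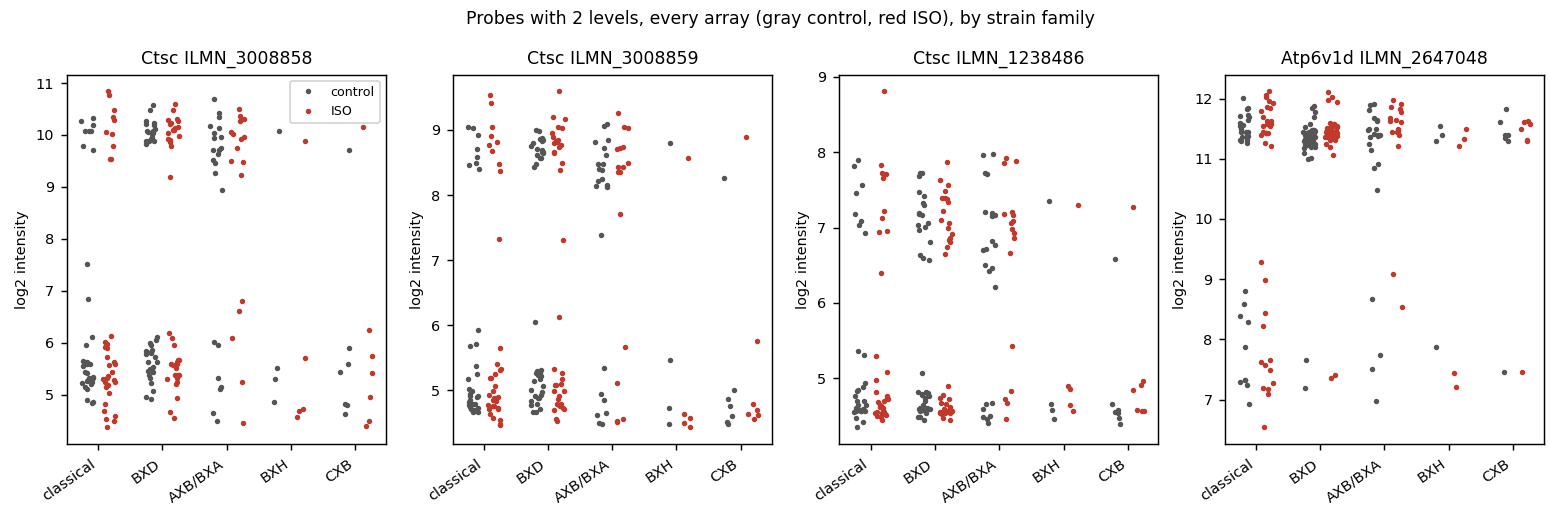
Log2 intensity (y axis) of every array at the 3 probes of Ctsc and the probe of Atp6v1d, by strain family (x axis), with control arrays in gray and ISO arrays in red. The arrays form a low and a high group at each probe, and both conditions are in both groups.

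Of the glycosidases, which trim sugar chains from glycoproteins, glycolipids and glycosaminoglycans, 3 of 15 probes rose and 1 fell, with a median difference of 0.01. All 3 that rose belong to Gusb, the β-glucuronidase. At the probe with the smallest p-value, control strains ran from 9.35 over a median of 9.91 to 11.60 and ISO strains from 9.62 over 10.14 to 11.60. ISO was higher in 67 of 87 strains, by 0.27 (SE 0.05, 20.3%, adjusted p-value = 7.178e-06). The other probes of Gusb rose by 0.36 (SE 0.07, adjusted p-value = 1.386e-05) and 0.24 (SE 0.05, adjusted p-value = 3.005e-04). Their medians went from 6.58 (4.65 to 7.60) to 6.94 (4.74 to 8.33) and from 6.00 (4.45 to 6.86) to 6.28 (4.56 to 7.62). The call of the last of these was lost in the unpaired fit of the same strains (adjusted p-value = 0.0686). The 3 probes moved in the same direction over all strains, and in the third set of BeadChips they differed by -0.03, 0.60 and 0.26.

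Manba, the β-mannosidase, fell. Its control strains ran from 7.97 over 9.01 to 9.80 and its ISO strains from 5.18 over 8.77 to 9.61, and 63 of 87 strains were lower. The log2 fold change was -0.23 (SE 0.06, adjusted p-value = 0.00317), and the second probe differed by -0.19 (adjusted p-value = 0.00521). The lowest difference, -3.29, was that of AXB19/PgnJ, whose ISO array is one of those of low similarity. Without those arrays the difference of Manba was -0.17, under the fold threshold, and in the unpaired fit of the same strains its adjusted p-value was 0.0881. Within the sets of BeadChips it was -0.61, -0.08 and -0.35.

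No other glycosidase was called. Hexa, the α subunit of β-hexosaminidase, and Neu1, the sialidase, were 0.17 and 0.11 higher on the log2 scale (adjusted p-value = 0.00114 and 0.00908), under the fold threshold. Man2b1, the lysosomal α-mannosidase, differed by 0.12 (adjusted p-value = 0.0665), Glb1, the β-galactosidase, by 0.04 and Gaa, the enzyme that degrades lysosomal glycogen, by -0.02. The probes of Idua, the α-L-iduronidase, differed by -0.09, -0.05 and -0.04. Fuca1 and Gla were each detected on 0.481% of arrays, and nothing can be said of their direction at this signal.

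Of the other soluble proteins 2 of 10 probes rose, of Lgmn and Gm2a, and the median difference was -0.03. Lgmn, the asparaginyl endopeptidase that processes cathepsins, ran from 8.26 over a median of 10.81 to 11.57 in control strains and from 9.30 over 11.06 to 11.79 in ISO strains. It was higher in 71 of 87 strains, by 0.34 (SE 0.06, 26.7%, adjusted p-value = 5.933e-06). Within the sets of BeadChips it differed by 0.08, 0.30 and 0.69, and its control mean was lower in the third set (10.08) than in the others (10.81 and 10.79).

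Gm2a, the activator that presents GM2 ganglioside to hexosaminidase, ran from 8.17 over 9.76 to 10.84 in control strains and from 8.26 over 9.92 to 11.71 in ISO strains. It rose by 0.24 (SE 0.05, adjusted p-value = 4.152e-05), with a higher value in 66 of 87 strains. Npc2, which hands cholesterol to the lysosomal membrane, was 0.16 higher (adjusted p-value = 0.0228) and stayed under the fold threshold. Psap, the precursor of the saposins, and Tpp1, a tripeptidyl peptidase, differed by -0.03 and -0.04, and Lipa, the acid lipase, by -0.02. The sulfatases were not called, with -0.12, -0.07 and -0.04 for Ids and 0.02 for Galns.

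Of the membrane proteins 3 of 10 probes rose, of Cd63 and Scarb2, with a median difference of 0.08. Cd63, a tetraspanin of late endosomes and lysosomes, rose at the probe with the smallest p-value by 0.22 (SE 0.03, 16.7%, adjusted p-value = 7.98e-08), with 66 of 87 strains higher. There, control strains ran from 11.42 over 12.06 to 12.79 and ISO strains from 11.72 over 12.24 to 13.19. A second probe rose by 0.43 (SE 0.10, adjusted p-value = 7.052e-04). It ran from 4.90 over 9.66 to 10.43 in control strains and from 7.98 over 9.91 to 11.06 in ISO strains, so the control group had a long lower tail. The highest difference, 4.88, was that of AXB6/PgnJ, whose control array is one of those of low similarity, and without those arrays the difference was 0.30 (adjusted p-value = 9.235e-04). The third probe differed by 0.08 (adjusted p-value = 0.177).

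Scarb2, the receptor that carries β-glucocerebrosidase to the lysosome, ran from 8.41 over 9.45 to 10.19 in control strains and from 8.45 over 9.65 to 10.32 in ISO strains. It rose by 0.20 (SE 0.03, 14.9%, adjusted p-value = 2.428e-06), at the fold threshold, and was higher in 68 of 87 strains. Without the arrays of low similarity the difference was 0.18, and with median scaling of the arrays 0.19, both under the threshold. Lamp1, the most abundant glycoprotein of the lysosomal membrane together with Lamp2, was 0.08 higher (adjusted p-value = 0.0265). Lamp2 differed by 0.17, 0.04, 0.03 and -0.02 at its probes, none past the adjusted p-value, and Mcoln1, a calcium channel, by 0.06.

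**Figure D3:**
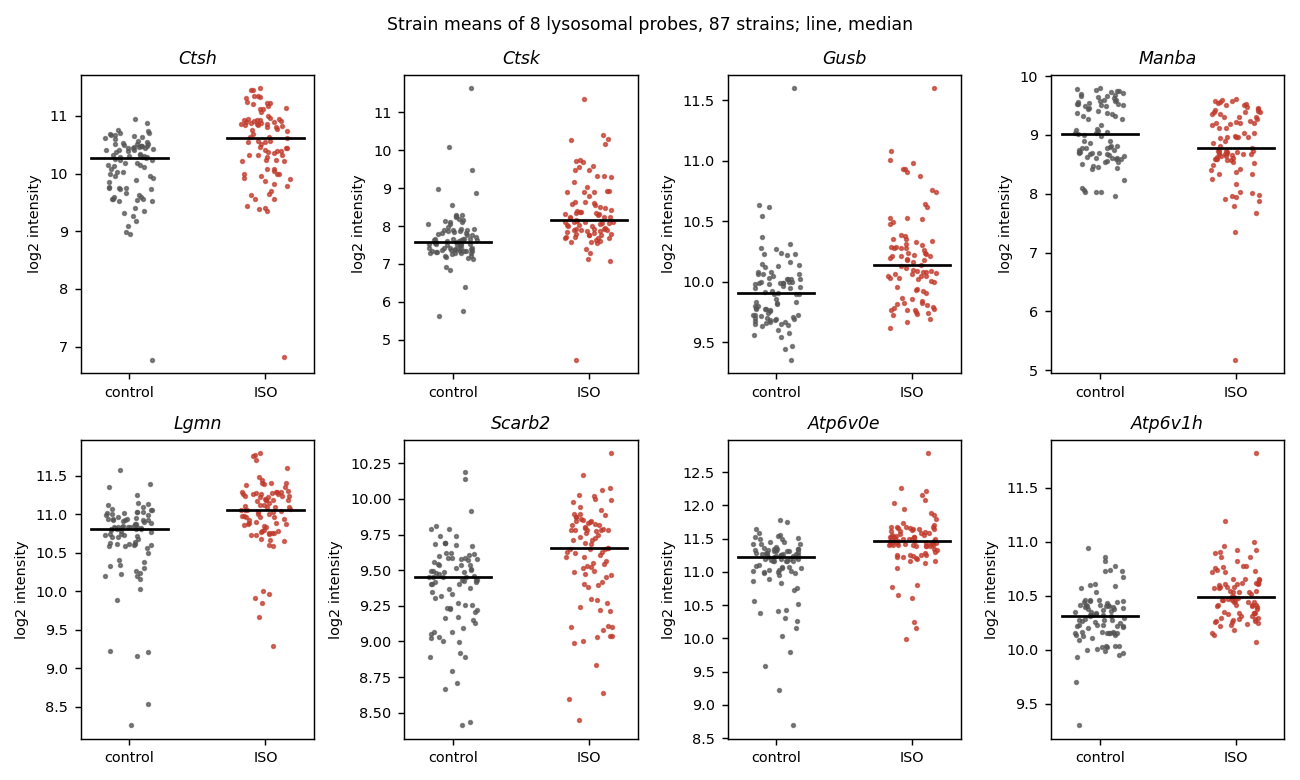
Log2 intensity (y axis) of 8 lysosomal probes in control (gray) and ISO (red) hearts, 1 panel per gene. Each point is the mean of a strain (87 strains), and lines are medians. The ranges overlap in every panel, with the ISO median above the control median in 7 panels and below it for Manba.

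Of the proton pump 4 of 18 probes rose and none fell. The median difference was 0.12 over its probes, 8 of which belong to Atp6ap2 and Atp6v0d1, and 0.09 with the median of each gene (0.10 for the cathepsins). Atp6v0e, a small subunit of the membrane sector, ran from 8.70 over a median of 11.22 to 11.78 in control strains and from 9.99 over 11.47 to 12.78 in ISO strains. It rose by 0.39 (SE 0.06, 30.7%, adjusted p-value = 4.807e-08), and 75 of 87 strains were higher. Atp6v1h, a regulatory subunit of the cytosolic sector, ran from 9.30 over 10.31 to 10.94 and from 10.07 over 10.49 to 11.82. Its log2 fold change was 0.23 (SE 0.03, 17.2%, adjusted p-value = 4.352e-08), again with 75 of 87 strains higher, and 0.19, under the fold threshold, without the arrays of low similarity.

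Atp6ap2, an accessory protein of the pump also known as the prorenin receptor, and Atp6v0d1, which joins both sectors, were called at 1 probe each. Atp6ap2 rose there by 0.32 (SE 0.10, adjusted p-value = 0.0208), from 7.41 (4.53 to 8.13) to 7.70 (4.82 to 8.53) as medians and ranges of the strains. Atp6v0d1 rose by 0.32 (SE 0.11, adjusted p-value = 0.0334), from 8.91 (4.76 to 9.64) to 9.03 (6.08 to 10.52). Their other probes differed by 0.25, 0.22 and 0.14 for Atp6ap2 and by 0.25, 0.11 and 0.03 for Atp6v0d1. Neither call was kept in the unpaired fit of the same strains (adjusted p-value = 0.187 and 0.143) nor with median scaling of the arrays (adjusted p-value = 0.0596 and 0.0858). That of Atp6ap2 was lost without the arrays of low similarity (adjusted p-value = 0.0634). That of Atp6v0d1 was lost without BeadChips 12, 19, 23 and 24 (adjusted p-value = 0.0608), where only the first array per strain and condition was kept (0.0575), with pairs on the same BeadChip only (0.0597) and in the second set of BeadChips alone (0.201).

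Other pump subunits stayed under the fold threshold or did not pass the test. Atp6v1c1 and Atp6v0b were 0.18 and 0.11 higher (adjusted p-value = 0.0114 and 0.00488). Atp6v1e1 (0.04), Atp6v1b2 (0.04) and Atp6ap1 (0.01) differed little, with standard errors of 0.02, 0.04 and 0.02, and Atp6v1f and Atp6v1a, the catalytic subunit, differed by -0.02 and -0.01. Subunits that form the same complex therefore did not all rise past the thresholds. Of the other V-ATPase subunits on the array, 0 of 12 were called by limma, with a median difference of -0.00418, and 2 had an unadjusted p-value under 0.05. Both were lower with ISO: Atp6v0a1, a large subunit of the membrane sector, differed by -0.13 (adjusted p-value = 0.0245, detected on all arrays) and Atp6v1b1 by -0.11 (adjusted p-value = 0.0833). Only 7 of the 12 were detected on most arrays. Atp6v0a4, Atp6v0d2, Atp6v1e2 and Atp6v1g3 were each detected on 0.962% of arrays or fewer, and Atp6v1c2 on 27.9%. The count of 0 and the median of these 12 therefore include probes near background.

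The size of several responses differed between the sets of BeadChips. In the second set, with 52 strains, 17 lysosomal probes rose (3.93% of all probes did), in the first set, with 24 strains, 5 rose (1.07%), and in the third, with 16 strains, 0 rose by limma (0.0156%), where 19 of 71 had an unadjusted p-value under 0.05. Of the 17 probes called over all strains, all 17 had the same direction within the first and within the second set, and 14 within the third. These probes were chosen by the fit over the same arrays, so their shared direction is in part fixed by that choice. The second Cd63 probe differed by 0.61, 0.21 and 1.06 within the sets, and its control mean was 9.82 in the second set against 8.79 and 8.28 in the others. The called probe of Atp6v0d1 had control means of 8.65, 8.78 and 7.40 and differed by 0.42, 0.16 and 0.77. The called probe of Atp6ap2 had control means of 6.57, 7.51 and 5.85 and differed by 0.25, 0.28 and 0.77. The median share of detected probes was also lowest in the third set (43.1% of probes on control arrays, against 45.8% in the first and 47.5% in the second), and its part in these differences was not tested.

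**Figure D4:**
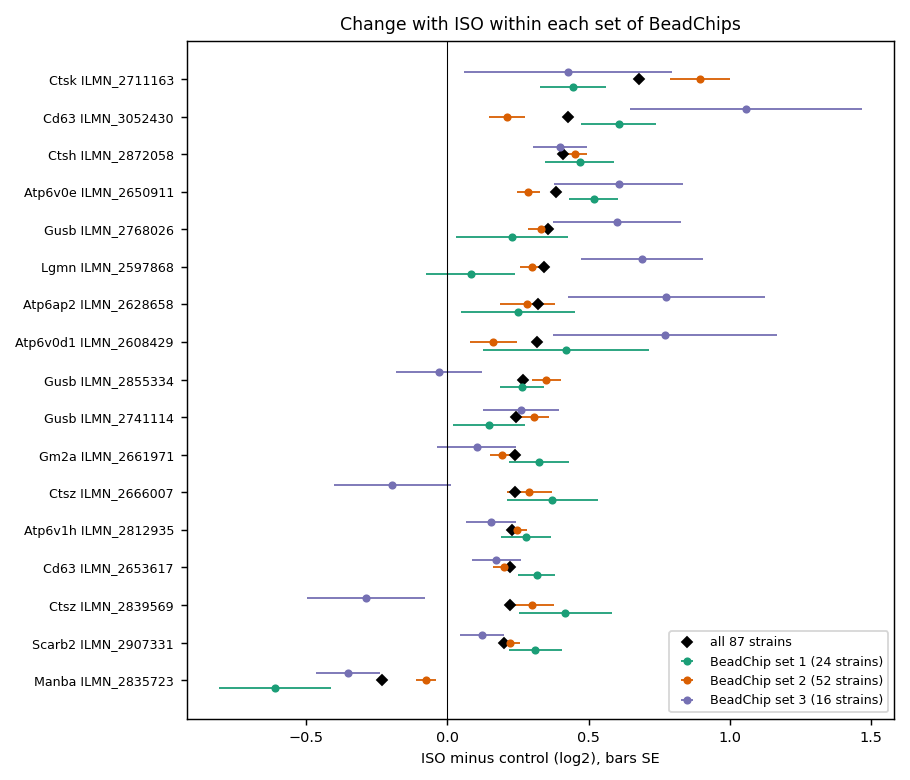
ISO minus control difference in log2 intensity (x axis, bars are standard errors) of the 17 called lysosomal probes (rows), within each of 3 sets of BeadChips and over all 87 strains (black diamonds). Ctsz at both probes and Gusb at 1 probe lie below 0 in the third set.

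In untreated hearts, 1 of 71 lysosomal probes differed among the 5 families (limma F test, adjusted p-value under 0.05), against 0.681% of all probes, and 16 of 71 had an unadjusted p-value under 0.05, against 20.1% of all probes. The called probe was that of Gaa (adjusted p-value = 0.0204), whose log2 intensity averaged 10.26 ± 0.43 (SD, n = 27) in classical strains, 10.64 ± 0.32 (n = 37) in BXD, 10.70 ± 0.40 (n = 18) in AXB/BXA, 10.76 ± 0.31 (n = 4) in BXH and 10.89 ± 0.27 (n = 7) in CXB. Classical strains were thus lowest on average. With the set of BeadChips as a covariate the adjusted p-value of Gaa was 0.198. The next smallest p-values were those of Atp6v1a (adjusted p-value = 0.110) and the 3 probes of Ctsc (0.112, 0.115 and 0.127, in the order of their variability), by the same F test. Atp6v1a ran from 5.81 ± 0.31 in BXH to 6.64 ± 0.50 in AXB/BXA. The most variable probe of Ctsc averaged 5.84 ± 1.77 in CXB, 6.44 ± 2.44 in BXH, 6.60 ± 1.88 in classical strains, 7.65 ± 2.26 in BXD and 8.68 ± 2.00 in AXB/BXA, and the next probe 5.21 ± 1.36, 5.87 ± 2.00, 5.88 ± 1.51, 6.72 ± 1.86 and 7.54 ± 1.59 in the same order. All 5 families held both levels described above.

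The response to ISO did not differ among families at any lysosomal probe past an adjusted p-value of 0.05 (0 of 71 by limma, against 0% of all probes), and 2 of 71 had an unadjusted p-value under 0.05, against 8.46% of all probes. The smallest was that of Atp6v1a (adjusted p-value = 0.352), which was 0.38 lower with ISO in AXB/BXA strains (response -0.38 ± 0.54, n = 16) and 0.35 ± 0.44 higher in BXH strains (n = 4).

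Most macrophage markers rose in the same hearts: 10 of 16 measured markers were called up, against 4.05% of all genes, and 0 down, against 4.10%. The median difference was 0.35, and 12 of the 16 were detected on most arrays. Among those called were Lyz2 (0.82) and Adgre1 (0.43). The 6 without a call included Cd163 (-0.003), Cx3cr1 (-0.11) and Aif1 (0.14), each detected on most arrays. The summed linear intensity of the 16 markers per strain ran from 2106 over a median of 6317 to 17990 in control and from 3635 over 8587 to 29210 in ISO hearts. Fibroblast markers rose in 5 of 13 cases, against 4.05% of all genes: Col1a1 (0.64), Col1a2 (0.43), Col3a1 (0.70), Lum (0.37) and Tcf21 (0.37). The 8 without a call included Pdgfra (0.001), Thy1 (0.005), Dcn (0.08) and Fap (-0.09), each detected on most arrays. Summed intensities of the 13 markers were 13730 to 30060 in control and 12520 to 41060 in ISO hearts. Endothelial markers (0 of 9 up, 1 down) ran from 10280 to 30740 and from 5124 to 22540. Flt1 (-0.19, adjusted p-value = 0.0210) and Emcn (-0.13, adjusted p-value = 0.0288) were also lower, under the fold threshold. Markers of cardiac myocytes ran from 191400 to 248100 and from 172800 to 243900. By limma 0 of 11 were called, and 2 had an unadjusted p-value under 0.05. Both were lower with ISO: Myh6 (-0.10, adjusted p-value = 0.0122) and Pln (-0.18, adjusted p-value = 0.0389). Of the osteoclast markers 0 of 5 were called by limma (2 with an unadjusted p-value under 0.05). Acp5 was 0.13 higher (adjusted p-value = 0.0157, detected on 32.7% of arrays) and Oscar differed by -0.13 (adjusted p-value = 0.154, 77.9% of arrays), while Calcr, Ocstamp and Dcstamp were detected on 1.44%, 0% and 0% of arrays.

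The ISO response of a part of the lysosomal genes was larger in strains with a larger response of the macrophage markers. The mean response of the 16 markers was 0.28 and ran from -0.40 in BXD5/TyJ to 1.23 in NON/LtJ. In a limma regression of each response on it, 16 of 71 lysosomal probes had a positive slope past an adjusted p-value of 0.05, against 2.81% of all probes, and 0 had a negative one, against 0.366%. Of the 16 probes that rose with ISO, 8 were among them. The response of a gene and of the markers comes from the same arrays, so errors of an array enter both. As many lysosomal probes, 16, had a positive slope on the fibroblast markers given below, so the relation was not particular to macrophage markers. The responses of these marker lists were not separated from each other.

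Of the 16 probes with a positive slope on the macrophage markers, that of Ctsk had the steepest, 1.52 on the log2 scale per log2 unit of marker response (SE 0.25, adjusted p-value = 8.107e-06). Without CXB11/HiAJ its slope was 1.34. At the other end BXD5/TyJ, on BeadChip 24, had both the lowest marker response (-0.40) and the lowest Ctsk response (-3.76). The slope of Ctsk stayed past the threshold without BeadChips 12, 19, 23 and 24. The other genes that rose and had a positive slope were Ctsz (0.84 and 0.94), Gusb at 2 probes (0.83 and 0.72), Gm2a (0.71), Cd63 at the probe named first (0.51) and Lgmn (0.55). The third called probe of Gusb had a slope of 0.41, not past the threshold (adjusted p-value = 0.133). Genes with a slope but no call were Man2b1 (0.67), Hexa (0.61), Ctsb (0.48), Npc2 (0.47) and Ctss (0.38), along with 1 probe each of Lamp2 (0.55), Cd63 (0.41) and Atp6ap2 (0.44). Without BeadChips 12, 19, 23 and 24, 10 probes had a positive slope past the threshold, and those of Lgmn, Npc2, Ctss, Atp6ap2, Gusb at 1 probe and Cd63 at 1 probe were lost, as they were with BeadChip 25 left out too. Without the arrays of low similarity 17 did, and that of Atp6ap2 was lost. Without CXB11/HiAJ 12 did, and those of Lgmn, Npc2, Ctss and Atp6ap2 were lost.

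For several of the genes that rose with ISO the slope was not past the threshold. It was 0.23 (SE 0.12, adjusted p-value = 0.439) for Ctsh, -0.04 (adjusted p-value = 0.949) for Scarb2, 0.26 (adjusted p-value = 0.104) for Atp6v1h and 0.38 (adjusted p-value = 0.222) for Atp6v0e. Of 18 proton pump probes 1 had a slope past the threshold, of 18 cathepsin probes 5 and of 15 glycosidase probes 4. The difference between these slopes was not tested. In the same regression on the mean response of 13 fibroblast markers, chosen after the values were seen, 16 lysosomal probes had a positive slope (4.42% of all probes), or 12 without BeadChips 12, 19, 23 and 24, and 1 a negative one (1.74% of all probes). The latter was the probe of Fuca1, which is at background on nearly all arrays, and its slope is not read. Ctsk had a slope of 1.95 there (SE 0.23, adjusted p-value = 1.155e-10) and Ctsh one of 0.20 (adjusted p-value = 0.396).

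**Figure D5:**
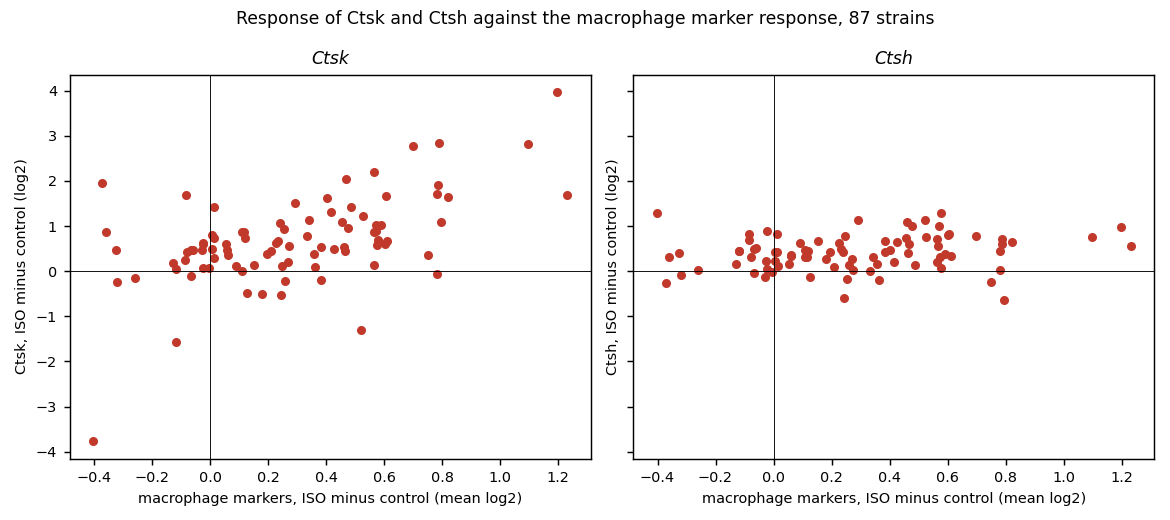
ISO minus control difference of Ctsk (left) and Ctsh (right) in log2 intensity (y axis) against the mean ISO minus control difference of 16 macrophage markers (x axis, log2). Each point is 1 of 87 strains. The points of Ctsk rise with the marker response from -3.76 to 3.97, and those of Ctsh lie mostly above 0 along the whole x axis.

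Of 100 measured genes of the wider pathway, in 7 lists, 6 rose (6%, against 4.05% of all genes) and 2 fell (2%, against 4.10%), each gene by its probe of the highest mean. Of 15 further membrane proteins of the lysosome, 2 rose: Gpnmb, a glycoprotein of phagocytes and pigment cells (1.41, SE 0.24, adjusted p-value = 2.192e-06), and Laptm5, of hematopoietic cells (0.35, SE 0.07, adjusted p-value = 3.218e-05). Of 23 further hydrolases and cofactors, Dpp7, a dipeptidyl peptidase, rose by 0.29 (adjusted p-value = 0.00227), and Arsb, a sulfatase, fell by 0.22 (adjusted p-value = 0.0190). Neither was called in the unpaired fit of the same strains (adjusted p-value = 0.0930 and 0.176), and Arsb was -0.17 without BeadChips 12, 19, 23 and 24, under the fold threshold. Among 8 cystatins, the inhibitors of cysteine cathepsins, only Cstb was called, 0.29 higher (adjusted p-value = 4.509e-07). Of the 8, only 2 were detected on most arrays, Cstb and Cst3. Cst3 was 0.13 higher (adjusted p-value = 0.00244), under the fold threshold. The other cystatins were each detected on 7.69% of arrays or fewer, so their lack of a call says little. Among 17 autophagy genes, the cargo receptor Sqstm1 rose by 0.25 (adjusted p-value = 1.905e-06) and Gabarapl1, which coats autophagosomes, by 0.22 (adjusted p-value = 1.487e-04).

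Of the genes that sort enzymes to the lysosome 0 of 14 were called by limma (5 with an unadjusted p-value under 0.05, median difference -0.05). Sort1 differed by -0.17 (SE 0.04, adjusted p-value = 9.783e-05, detected on 100% of arrays), short of the fold threshold. Of 11 regulators of lysosomal genes 1 was called: Mitf, a factor related to TFEB, was 0.24 lower (SE 0.05, adjusted p-value = 9.702e-05) at a probe detected on 30.8% of arrays. Without background correction its difference was -0.08. Mtor was 0.17 higher (adjusted p-value = 0.00101, detected on 100% of arrays), under the fold threshold.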

How the data were processed

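LV RNA was hybridized to Illumina MouseRef-8 v2.0 BeadChips. The deposited table of probe intensity was exported by the authors with GenomeStudio 2010.3 and is neither background-corrected nor normalized. Beside each value stands a detection p-value, deposited by the authors, that sets the signal against negative controls. The authors also deposited normalized log2 values (limma), used here as an alternative.

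For 25697 gene probes, neqc was run on the intensities (limma 3.58.1 in R 4.3.3, with an offset of 16 and the background taken from detection p-values). A further 829 control probes were set aside. The authors removed probes over SNPs and outlying arrays, which the text does not list, so all were kept. Probes were matched by the platform annotation, with symbols updated through RefSeq, and a gene was not averaged over its probes. For markers and pathway lists the probe of the highest mean was taken. Arrays of a strain and condition were averaged. The deviations of a strain in the 2 conditions had a median correlation of 0.478 (over 0.1 in 80 of 87 strains, -0.0195 between strains), so the strain was a block in limma (lmFit, eBayes). For 184 of 208 arrays the strain partner lay on the same BeadChip, so this correlation holds the BeadChip as well as the strain. Families were compared by an F test, and responses were regressed on the mean response of markers. Every member is named; full values are given for called probes, up to 4 per class by p-value, and for the 4 smallest p-values of the family test. Of the pathway lists, up to 3 called genes are named. The members and lists were chosen with earlier results of these data known. The number of arrays limits the precision. Each test was run on simulated data with independent errors. Array errors shared by a gene and the markers were not simulated, so that check does not cover them.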

Additional observations from a re-analysis of the deposited data

Results flagged for a closer look

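The response to ISO was screened for strains that lie far from the others of their family in the families of 4 to 10 strains (BXH with 4 strains and CXB with 7), at the 17 called lysosomal probes. Of 34 groups, 2 were marked, where chance marks about 1 in 20. Both belong to CXB11/HiAJ: its Ctsk response was 3.97, against 1.52 in the next of the 7 CXB strains and -0.10 in the lowest, and its Gm2a response was 1.18, against 0.16 in the next and -0.19 in the lowest. In this strain Ctsk went from 7.39 to 11.36, and the markers of macrophages and fibroblasts responded by 1.20 and 1.26. Without this strain the log2 fold changes were 0.64 for Ctsk and 0.23 for Gm2a, and both calls were kept.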

How the results depend on the processing

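Lysosomal probes called up numbered 16 over all strains and 10 without background correction, 5 in the first set of BeadChips and 0 in the third (limma, with 19 at an unadjusted p-value under 0.05). Probes called down, 1 over all strains, numbered 0 without background correction, without the arrays of low similarity and within each set of BeadChips, and 2 with strain and BeadChip as blocks, with the first array only, without BeadChips 12, 19, 23 and 24 (with or without BeadChip 25), with pairs on the same BeadChip only and with no fold threshold. The fits without the replicate block leave out the pairing by strain. Over the 87 strains with both conditions 11 probes rose there, against 2.93% of all probes, and 0 fell. Over all strain means 12 rose, against 3.09% of all probes, and 0 fell. With only detected probes 19 of 59 lysosomal probes rose (32.2%), against 8.16% of all detected probes. The directions that turned were those in the third set of BeadChips of Ctsz (-0.20 and -0.29), Gusb at 1 probe (-0.030), Dpp7 (-0.23) and Laptm5 (-0.15). The family difference in untreated level was called at 0 probes by limma with the set of BeadChips as a covariate. Slopes on the macrophage markers were called at 10 probes without BeadChips 12, 19, 23 and 24, and also without BeadChip 25, against 16. Negative slopes on the fibroblast markers, 1 over all strains, were called at 2 probes without the arrays of low similarity and at 0 without those BeadChips (with or without BeadChip 25), with the set as a covariate and without CXB11/HiAJ. The cause of these changes was not tested. A regression on Cd68 alone was not run, as no probe was matched to it. The leaving out of CXB11/HiAJ and of BeadChip 25, the fibroblast regression and the alternatives for the levels of Ctsc were chosen after seeing the data.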
